A study of Mus musculus with 2 samples.

Results

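The values below describe 10 genes of the bone morphogenetic protein (BMP) pathway in liver cells of mice: the ligand genes Bmp2, Bmp4 and Bmp6, the extracellular modulator Bmper, the receptor genes Bmpr2 and Acvrl1, the inhibitory SMAD genes Smad6 and Smad7, the signal-transducing Smad9, and the target gene Id1. They were taken by symbol from a list and not by their values, and all 10 were present among the 25114 gene symbols that both files hold, of 28200 in either file. The series holds 2 single-cell RNA sequencing libraries of liver cells, 1 mouse each, and in both animals the inferior vena cava had been partly tied off (pIVCL), a model of congestion by impeded outflow of blood. Both mice carried floxed alleles of Ctgf (current symbol Ccn2), which encodes connective tissue growth factor. The male mouse labelled knockout also carried Cdh5-CreERT2, which puts an inducible Cre under the promoter of the endothelial cadherin gene Cdh5 (the Cre library). Its control littermate had the genotype Ctgf fl/fl without Cre (the Cre-free library). The suspensions had been depleted of hepatocytes, dead cells and erythrocytes, so the shares of cells describe the suspension and not the organ.

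BMPs are secreted ligands that bring together type I and type II receptor kinases, which phosphorylate the receptor SMADs, and these enter the nucleus with SMAD4 and switch on target genes such as the Id genes. The inhibitory SMADs are targets as well and act back on the receptors, so they form a negative feedback loop. In liver, BMP2 and BMP6 from sinusoidal endothelial cells act on hepatocytes to drive hepcidin (Hamp), the hormone of iron balance, whereas BMP9 (Gdf2) and BMP10 act on endothelial cells through the type I receptor encoded by Acvrl1, the type II receptor encoded by Bmpr2 and the co-receptor endoglin.

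Sample titles contradict the genotypes given for them, each naming the other animal. The genotype decides the group here, as the library names do, and values are given for the Cre-free library first and the Cre library second. In endothelial cells Ccn2 stood at 923 CPM (counts scaled to a class total of 1000000) in the Cre-free library and at 4.95 CPM in the Cre library, a difference that goes with the genotypes and not with the titles. There was 1 library of each kind, so nothing could be tested, and the difference between 2 animals cannot be told apart from genotype or surgery. The 10000 barcodes of each file summed to 106208933 and 129802501 counts, of which 7556 and 8362 passed as cells. Only 2 barcodes were common to both. Intervals are 95% intervals and cover counting error only.

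Cells were assigned to classes by a gate on marker genes. The endothelial class held 2074 cells in the Cre-free library and 3554 in the Cre library, the Kupffer class (resident macrophages) 1209 and 1722, the stellate class (vitamin A-storing pericytes) 340 and 452, and the contractile mesenchymal class 275 and 90. No class was given to 1697 and 1191 cells. The 10 leading genes of each class by fold held markers of that class and of no other. The gate itself used these markers, so this is no independent check of the classes. In an unsupervised clustering drawn without the BMP genes, 52.3% of endothelial cells of the Cre-free library fell in cluster 0 and 61.4% of those of the Cre library in cluster 3, so the bulk of the class lay in different clusters in the 2 libraries. Kupffer cells fell mostly in cluster 5 (42.4% and 77.9%) and cluster 6 (33.2% and 2.56%).

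Promoter sequence from RefSeq (build GRCm38.p6, older than the build of the files) was at hand for 6 of the 10 genes, Bmp4, Bmp6, Bmper, Bmpr2, Smad6 and Smad9. Both strands of each window, 250 bases before to 50 after the start site, were searched for the palindrome GTCTAGAC, known as a SMAD-binding sequence, and for the GC-rich letters GGCGCC and GGAGCC, known from BMP-responsive elements. Shown here are Smad6, the only one of the 6 with the palindrome, Bmp4, the ligand whose levels went in opposite directions in different cells, and Hamp, the hepatocyte target. They are written 5′ to 3′ on the strand of the gene, with matches to any of these motifs in capitals, and end 10 bases after the start site.
Smad6, chr9:64022050-64022309, minus strand: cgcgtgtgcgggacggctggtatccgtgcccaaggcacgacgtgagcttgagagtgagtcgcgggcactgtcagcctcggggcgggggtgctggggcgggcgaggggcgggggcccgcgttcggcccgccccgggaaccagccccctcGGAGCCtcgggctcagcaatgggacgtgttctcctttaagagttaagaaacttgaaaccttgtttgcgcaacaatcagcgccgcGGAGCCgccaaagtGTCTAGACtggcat
Bmp4, chr14:46390660-46390919, minus strand: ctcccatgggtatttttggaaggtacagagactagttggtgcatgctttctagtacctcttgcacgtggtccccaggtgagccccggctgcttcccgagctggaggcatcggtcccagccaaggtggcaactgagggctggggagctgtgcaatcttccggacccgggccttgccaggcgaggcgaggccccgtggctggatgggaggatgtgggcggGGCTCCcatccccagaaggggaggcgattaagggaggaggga
Hamp, chr7:30944020-30944279, minus strand: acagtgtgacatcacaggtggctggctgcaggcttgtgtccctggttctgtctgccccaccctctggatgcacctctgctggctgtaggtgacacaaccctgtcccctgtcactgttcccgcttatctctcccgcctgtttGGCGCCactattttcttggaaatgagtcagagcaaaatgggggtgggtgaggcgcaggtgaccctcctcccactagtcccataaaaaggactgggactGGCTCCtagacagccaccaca
Of 32851 promoter windows of the same length, 0.213% held GTCTAGAC, 11.9% held GGCGCC and 30.8% held GGAGCC or its reverse complement GGCTCC. The letters GGCGCC occurred in the windows of Bmpr2 and Smad9 among the 6, and GGAGCC or its reverse complement in those of Bmp4, Bmper, Smad6 and Smad9. No 2 matches overlapped. The Bmp6 window held none of these letters. A match describes letters in a window and is no evidence of binding.

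Endothelial cells were the main source of Bmp2 and Bmp6 counts, and they held more Bmp2, Smad7 and Smad6 and less Bmp4 and Id1 in the Cre library. Of 9276 genes measured in endothelial cells (a minimum of 10 CPM in either library and 20 counts in all), 6.04% stood 1.5-fold or more above, and 14.5% 1.5-fold or more below, their Cre-free level in the Cre library, by size alone. Among the BMP genes 8 were measured, all but Bmper and Smad9, 3 were higher by that size and 2 were lower. Their median log2 ratio was 0.52, against -0.05 over all measured genes. Scaling by the trimmed mean of M-values shifted every endothelial log2 ratio by 0.16, and 5 of the 8 were then higher and 1 lower, with Bmp6 at 0.66 and Bmpr2 at 0.70 past the fold and Id1 at -0.48 no longer so.

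**Figure D1:**
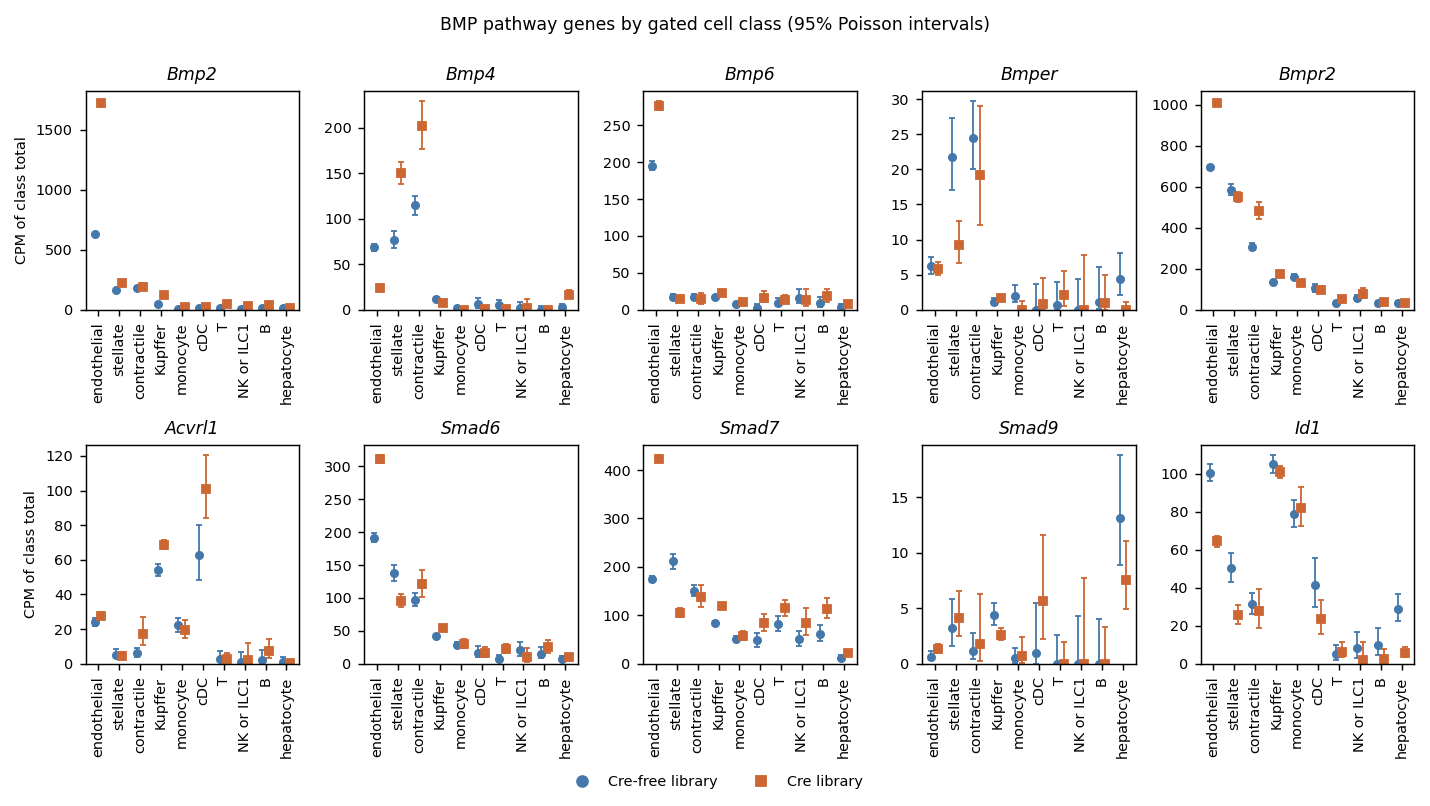
Level of each of the 10 genes (CPM of the class total, linear axis from 0) in 10 gated cell classes; circles are the Cre-free library, squares the Cre library, bars 95% Poisson intervals. Endothelial cells stand above all other classes drawn for Bmp2, Bmp6 and Bmpr2 in both libraries, whereas Acvrl1 is higher in Kupffer and conventional dendritic cells (cDC) than in endothelial cells.

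Bmp2 had the highest endothelial level of the 3 ligands. It stood in endothelial cells at 631 CPM (619 to 642) in the Cre-free library and at 1723 CPM (1708 to 1738) in the Cre library, which gives a log2 ratio of 1.45 (1.42 to 1.48). The difference lay in most cells and not in a few: with each cell thinned to 4000 counts, the median cell held 2 Bmp2 counts in the Cre-free library and 6 in the Cre library, with quartiles at 1 and 4 counts and at 4 and 9 counts. The share of thinned endothelial cells with a Bmp2 count was 77.2% and 97.5%, after 101 and 383 shallower cells had been left out. Unthinned cells, with median depths of 7019 and 7170.5 counts, gave 86.8% and 98.3%. Among B cells, where Bmp2 is not thought to be made, a count was found in 3.26% and 8.75% of unthinned cells of 4524 and 4062 counts in the median, and in 2.80% and 8.73% of thinned cells. Endothelial cells supplied 83.6% and 90.1% of all Bmp2 counts of gated cells.

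Mesenchymal cells came next for Bmp2. Stellate cells had 161 CPM (148 to 176) and 221 CPM (208 to 236), and contractile mesenchymal cells 180 CPM (167 to 193) and 192 CPM (167 to 219). The intervals of these 2 classes overlapped in each library, so their order is not fixed. Kupffer cells had 45.3 and 121.7 CPM, at a log2 ratio of 1.42. That is 7.19% and 7.06% of the endothelial level in the same library. The endothelial markers Kdr, Ptprb, Oit3 and Clec4g stood at 7.11%, 7.33%, 8.11% and 9.97% of their endothelial level in Kupffer cells of the Cre-free library, and at 6.05%, 5.83%, 6.65% and 8.60% in the Cre library. Cdh5 and Stab2 stood higher, at 45.7% and 18.6% in the Cre-free library and at 66.6% and 16.5% in the Cre library. The Kupffer level of Bmp2 was uneven over clusters: Kupffer cells of cluster 5, 513 and 1342 cells, had 8.04 and 53.3 CPM, for a log2 ratio of 2.73 (2.31 to 3.18), and those of cluster 8, 71 and 158 cells, 182 and 389 CPM, at 1.10 (0.92 to 1.29). Cluster 8 also carried endothelial markers and was given no name. The 12 endothelial markers summed to 1682 and 2243 CPM in Kupffer cells, and their part in the Kupffer level of Bmp2 was not tested.

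Bmp4, the closest relative of Bmp2 among the ligands, went the other way in endothelial cells taken as 1 class. Its level there was 68.4 CPM (64.7 to 72.2) in the Cre-free library and 24.2 CPM (22.5 to 26.0) in the Cre library, for a log2 ratio of -1.50 (-1.63 to -1.37). Unlike Bmp2, it was found in few endothelial cells, 14.9% and 2.76%, and after thinning in 198 of 1973 and 65 of 3171 cells. Of the 1289 and 724 endothelial Bmp4 counts, 651 and 647 lay in cluster 1. There the level was higher in the Cre library, at 258 and 351 CPM. Cluster 0 went the other way, with 88 and 4 Bmp4 counts. The lower class level is thus not a lower level in the cells that held most of the counts. B cells had no Bmp4 count in either library, in 184 and 240 cells, which allows shares of up to 1.98% and 1.53% (Clopper-Pearson). In stellate cells the level was higher in the Cre library, at 76.9 CPM (67.9 to 86.8) and 149.7 CPM (138 to 162), which gives a log2 ratio of 0.96 (0.75 to 1.17). Contractile mesenchymal cells had 115 and 201 CPM, at a log2 ratio of 0.81 (0.58 to 1.04). Endothelial cells thus supplied 53.7% of the Bmp4 counts of gated cells in the Cre-free library and 37.2% in the Cre library, and stellate cells 10.9% and 33.3%. Hepatocyte-gated cells held 2.64 and 16.6 CPM of Bmp4, in a class of 243 and 81 cells. A Bmp4 count was found in 5 and 17 of them, and after thinning in 2 of 221 and 2 of 63.

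Bmp6, the other hepcidin-driving ligand, was an endothelial gene in both libraries, with 85.0% and 88.5% of its gated counts there. Its endothelial level was 195 CPM (189 to 202) and 277 CPM (271 to 283), for a log2 ratio of 0.50 (0.45 to 0.56), which is under the 1.5-fold size. Kupffer cells had 17.1 and 23.2 CPM, and stellate cells 16.8 and 14.6 CPM. Bmper, whose product binds BMPs outside the cell, was low everywhere and highest in mesenchyme. Contractile mesenchymal cells had 24.5 and 19.2 CPM and stellate cells 21.8 and 9.26 CPM. The stellate log2 ratio was -1.24 (-1.83 to -0.66), from 74 and 40 counts. Endothelial cells had 6.21 and 5.82 CPM, too low to be counted as measured.

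The receptor genes differed by less than 1.5-fold in endothelial cells as a whole. Bmpr2, the type II receptor, had 695 CPM (684 to 707) and 1008 CPM (997 to 1020) in endothelial cells, which gives a log2 ratio of 0.54 (0.51 to 0.57). Stellate cells followed at 587 and 550 CPM, with a log2 ratio of -0.09 (-0.18 to -0.01), and contractile mesenchymal cells had 306 and 482 CPM, with a log2 ratio of 0.66 (0.51 to 0.80). Endothelial cells of the Cre library were above stellate cells by more than the counting intervals, and so were those of the Cre-free library.

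Acvrl1, the type I receptor for BMP9 and BMP10, was at 24.1 CPM (22.0 to 26.5) and 27.7 CPM (25.9 to 29.7) in endothelial cells, at a log2 ratio of 0.20 (0.03 to 0.37). It was higher in Kupffer cells, at 53.9 CPM (50.6 to 57.4) and 68.8 CPM (66.0 to 71.7), which held 56.6% and 65.7% of its gated counts. Conventional dendritic cells had 62.9 and 101 CPM. Neutrophils, only 28 and 151 cells, had 148.6 and 149.9 CPM. The levels of conventional dendritic and Kupffer cells overlapped in their intervals in the Cre-free library. The Kupffer level of Acvrl1 exceeded the endothelial level in both libraries. Its ratio was wider where counts were few, at 6.19 and 17.4 CPM in contractile mesenchymal cells, a log2 ratio of 1.49 (0.58 to 2.39), and at 15.1 and 42.9 CPM in angiogenic endothelial cells, a log2 ratio of 1.51 (0.62 to 2.36) from 31 and 20 counts.

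**Figure D2:**
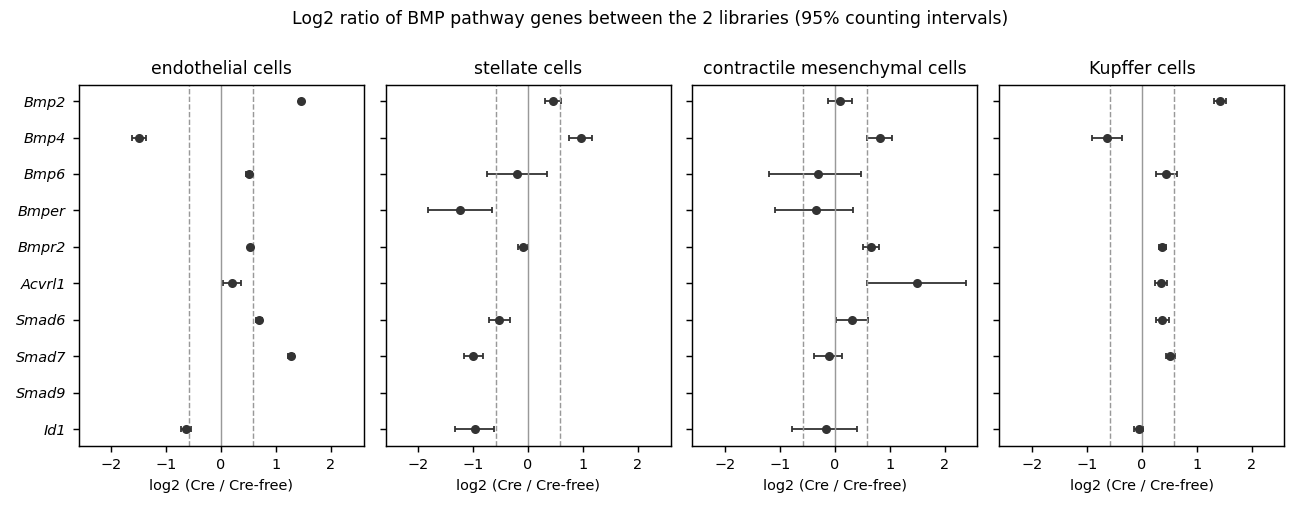
Log2 ratio of the Cre library to the Cre-free library for each measured gene in 4 classes, with 95% counting intervals; dashed lines mark 1.5-fold in either direction. Bmp4 lies below 0 in endothelial and Kupffer cells and above 0 in stellate and contractile mesenchymal cells, and Smad7 lies at 1.28 in endothelial cells and -1.0 in stellate cells.

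The inhibitory SMAD genes were both higher in endothelial cells of the Cre library. Smad7, which blocks receptors of the BMP and TGF-beta branches, had 175 CPM (169 to 181) and 424 CPM (416 to 431), for a log2 ratio of 1.28 (1.22 to 1.33). Thinned endothelial cells with a Smad7 count were 45.7% and 69.8%. In stellate cells the order was the opposite, with 212 CPM (196 to 228) in the Cre-free library and 106 CPM (96.3 to 116) in the Cre library, which gives a log2 ratio of -1.0 (-1.17 to -0.83). Over 9 alternatives the stellate ratio ran from -1.10 to -0.48, the latter under the 1.5-fold size. The stellate class was the class of highest Smad7 level among those drawn in the Cre-free library, and the endothelial class in the Cre library. Contractile mesenchymal cells had 150 and 139 CPM, with a log2 ratio of -0.12 (-0.38 to 0.14). Those of cluster 13, 229 and 75 of the 275 and 90 cells, had 140 and 81.2 CPM, at a log2 ratio of -0.79 (-1.19 to -0.41). The class value thus moves with the cells outside cluster 13. In the Cre library these were 15 cells, all in cluster 24, where mesothelial markers led. Smad6 of contractile cells went from 0.32 in the class to -0.34 (-0.81 to 0.10) within cluster 13.

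Smad6, the inhibitor more selective for the BMP branch, had 192 CPM (185 to 198) and 311 CPM (304 to 317) in endothelial cells, at a log2 ratio of 0.70 (0.64 to 0.75). With thinned cells the ratio was 0.57 and with clusters in place of the gate 0.54, which is under the 1.5-fold size. Stellate cells had 138 and 95.8 CPM, for a log2 ratio of -0.52 (-0.72 to -0.33). Smad9, which encodes the receptor SMAD also called SMAD8, was close to 0 in nearly all classes. Hepatocyte-gated cells had 13.2 and 7.59 CPM and Kupffer cells 4.43 and 2.63 CPM. Endothelial cells had 12 and 40 counts of Smad9 in all, so the gene was not measured there.

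Id1, a direct target of BMP-activated SMADs and an inhibitor of basic helix-loop-helix factors, was lower in endothelial cells of the Cre library. Its level was 101 CPM (96.1 to 105) and 64.4 CPM (61.6 to 67.4), which gives a log2 ratio of -0.64 (-0.74 to -0.55). It was also lower in stellate cells, at 50.4 and 25.7 CPM, at a log2 ratio of -0.97 (-1.33 to -0.62). Kupffer cells had 105 and 101 CPM, and their log2 ratio was -0.06 (-0.14 to 0.02). Mesothelial cells had the highest level, 175 and 197 CPM, in 57 and 16 cells. The endothelial difference was under 1.5-fold with thinned cells (-0.55), with means of per-cell CPM (-0.49), with clusters in place of the gate (-0.47) and in sinusoidal-gated cells alone (-0.30).

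In stellate cells 8 of the 10 genes were measured, all but Acvrl1 and Smad9, with a median log2 ratio of -0.36 against -0.03 over all genes measured there. Bmp4 was higher by 1.5-fold or more, as were 6.27% of 9539 genes measured there, and Bmper, Smad7 and Id1 were lower, as were 11.7% of those genes. Contractile mesenchymal cells had 9 measured, all but Smad9, with a median of 0.09 against -0.05, of which Bmp4, Bmpr2 and Acvrl1 were higher against 12.1% of 9516 genes, and none was lower against 16.4%. The Acvrl1 value rests on 26 and 20 counts, and within cluster 13 on 12 and 6, too few to be measured; Bmp4 (0.60) and Bmpr2 (0.80) were still higher within that cluster and Smad7 was lower. Kupffer cells had 8 measured, all but Bmper and Smad9, with a median of 0.37 against 0.01, and with Bmp2 higher against 4.9% of 9000 genes and Bmp4 lower against 5.9%. The Kupffer value of Bmp4 was 11.8 and 7.57 CPM, and the lower level was not seen within cluster 5 (1.0 and 1.27 CPM) or cluster 8 (5.70 and 5.23 CPM), both below the minimum for a measured gene. The summed level of the 12 endothelial markers in stellate cells was 939 and 507 CPM, and that of the 9 Kupffer markers 1004 and 1949 CPM; their part in the stellate values was not tested.

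Endothelial states differed in these genes and in their share of cells between the libraries. Periportal cells numbered 665 and 1425, other sinusoidal cells 776 and 1011, pericentral cells 124 and 292, angiogenic cells 226 and 56, large-vessel cells 95 and 18, cells marked by Cyp26b1 and Car8 11 and 721, and 177 and 31 had no state. Values of the large-vessel state in the Cre library and of the Cyp26b1 Car8 state in the Cre-free library thus rest on 18 and 11 cells.

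Bmp2 was spread over the sinusoid and low in large vessels. Periportal cells had 767 CPM in the Cre-free library and 1581 CPM in the Cre library, for a log2 ratio of 1.04 (0.99 to 1.10). Other sinusoidal cells had 771 and 1853 CPM, which gives a log2 ratio of 1.26 (1.22 to 1.31). Pericentral cells had 372 and 1635 CPM, at a log2 ratio of 2.14 (1.99 to 2.28), the largest of the states with at least 50 cells in each library. Cells with a count of Rspo3, the pericentral R-spondin, were 92 of 124 and 146 of 292 in that state, and the log2 ratio of Bmp2 was 2.45 (2.26 to 2.65) in them and 1.25 (1.04 to 1.46) in the others. Large-vessel markers summed to 1544 and 398 CPM and sinusoidal markers to 9094 and 17435 CPM in the state, and the part of this make-up in its ratios was not tested. Angiogenic cells had 710 and 1890 CPM. The pericentral level was therefore below the periportal level in the Cre-free library and level with it, 1635 against 1581 CPM, in the Cre library. Large-vessel cells had 181 and 182 CPM.

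**Figure D3:**
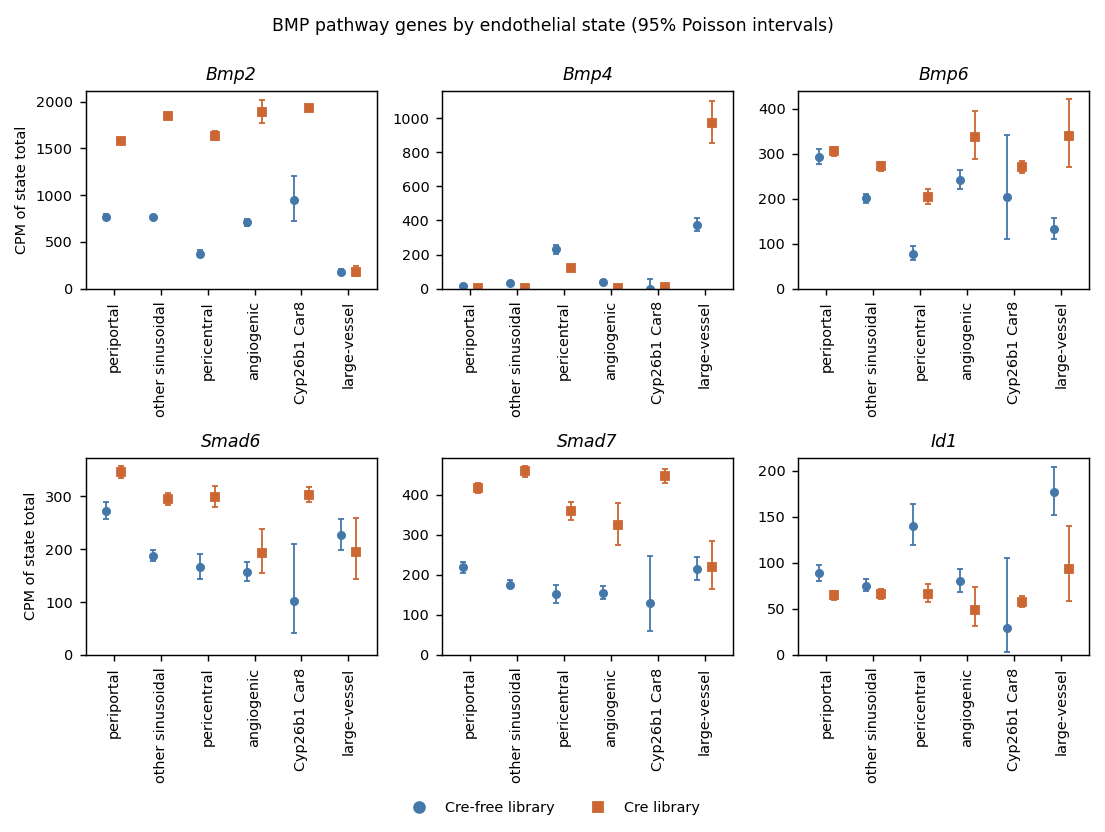
Level of 6 of the genes (CPM of the state total, linear axis from 0) in 6 endothelial states; circles are the Cre-free library, squares the Cre library, bars 95% Poisson intervals. Bmp2 is higher in the Cre library in 5 of the 6 states and at 181 and 182 CPM in large-vessel cells, where Bmp4 is highest in both libraries.

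Bmp4 had a different map. Large-vessel cells had 376 and 973 CPM and pericentral cells 230 and 122 CPM, whereas periportal cells had 14.2 and 1.79 CPM and other sinusoidal cells 33.5 and 6.31 CPM. Angiogenic cells had 39.9 CPM in the Cre-free library and a single count, 2.14 CPM, in the Cre library, for a log2 ratio of -4.22 (-9.54 to -1.70). Within the pericentral state Bmp4 went with Rspo3: cells with an Rspo3 count had 283 CPM (250 to 319) and 222 CPM (199 to 247), and cells without it 28.6 and 1.54 CPM, from 7 and 2 counts. Bmp2 in the same cells went the other way, with 256 and 1400 CPM where Rspo3 was counted and 810 and 1921 CPM where it was not.

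Bmp4 was lower in the Cre library in each state with at least 50 cells in each library, at log2 ratios of -0.91 in pericentral, -2.41 in other sinusoidal, -2.99 in periportal and -4.22 in angiogenic cells. With each state's level weighted by the state shares of the Cre-free library, the endothelial log2 ratio of Bmp4 was -0.09, a value carried by the 18 large-vessel cells of the Cre library, and with the shares of the Cre library it was -0.80. Without the large-vessel state the same weightings gave -1.97 and -1.27, and no weighting gave -1.65. Over all states the weightings gave 1.27 and 1.19 for Bmp2, 1.08 and 1.25 for Smad7, 0.49 and 0.66 for Smad6 and -0.48 and -0.29 for Id1. Large-vessel cells held 29.4% of the endothelial Bmp4 counts in the Cre-free library with 5.35% of the endothelial counts, and 33.1% with 0.82% in the Cre library. The summed level of the 10 stellate markers in endothelial cells was 332 and 138 CPM, and that of the 7 large-vessel markers 459 and 117 CPM. The stellate markers' part in the lower endothelial Bmp4 was not tested.

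Bmp6 was highest in periportal and angiogenic cells of the Cre-free library. Periportal cells had 293 and 306 CPM, which gives a log2 ratio of 0.06 (-0.03 to 0.15), while pericentral cells had 78.0 and 205 CPM, at a log2 ratio of 1.39 (1.07 to 1.73). Smad7 was higher in the Cre library in every state with at least 50 cells in each library. Its log2 ratio was 0.93 (0.83 to 1.03) in periportal, 1.24 (1.01 to 1.48) in pericentral, 1.38 (1.29 to 1.47) in other sinusoidal and 1.06 (0.77 to 1.34) in angiogenic cells. Smad6 was at 272 and 346 CPM in periportal and 165 and 298 CPM in pericentral cells. Bmpr2 was at 1048 and 1167 CPM in periportal and 562 and 948 CPM in pericentral cells. Id1 was at 141 and 66.8 CPM in pericentral cells, for a log2 ratio of -1.07 (-1.38 to -0.76), and at 75.3 and 65.9 CPM in other sinusoidal cells, which gives a log2 ratio of -0.19 (-0.37 to -0.02).

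In pericentral cells 8 of the genes were measured, 5 were at least 1.5-fold higher and 2 lower, where 12% of 9319 genes were higher and 18% lower. The 5 were Bmp2, Bmp6, Bmpr2, Smad6 and Smad7, and the 2 were Bmp4 and Id1. In periportal cells 9 were measured, with Bmp2 and Smad7 higher against 5.05% of 8945 genes and Bmp4 and Bmper lower against 9.79%. The zonal contrast of Bmp2, Bmp6, Smad6 and Bmpr2 seen in the Cre-free library, periportal above pericentral, was smaller in the Cre library. The pericentral cells without an Rspo3 count, 32 in the Cre-free library, already had 810 CPM of Bmp2 there beside 767 CPM in periportal cells, and the change in make-up of the pericentral state given above stands beside this contrast.

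Within clusters drawn without these genes, the endothelial differences of Bmp2 and Smad7 were present in each of 5 clusters that held at least 50 endothelial cells of each library, at log2 ratios of 0.91 to 1.56 for Bmp2 and 0.70 to 1.18 for Smad7. Cluster 0, with 1085 and 504 endothelial cells, had log2 ratios of 1.13 for Bmp2, 1.15 for Smad7, 0.24 for Smad6, -3.65 for Bmp4 and -0.06 for Id1. Cluster 3, with 97 and 2181, had 1.23 for Bmp2, 0.70 for Smad7, -0.03 for Smad6 and -0.78 for Id1. Smad6 and Id1 were uneven over the other 3 clusters: Smad6 had 0.49, 0.59 and 0.78 and Id1 0.45, -0.94 and -0.48 in clusters 4, 1 and 28. Cluster 1, with 302 and 199, held the higher Bmp4 level, 258 and 351 CPM, at a log2 ratio of 0.44. It also held 651 and 647 of the 1289 and 724 endothelial Bmp4 counts. Stellate cells of cluster 13, which held 90.6% and 95.1% of that class, had log2 ratios of 0.94 for Bmp4, -1.18 for Smad7, -0.56 for Smad6 and -0.75 for Id1.

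The 5 other BMP-type ligands measured in stellate cells were highest in stellate or contractile mesenchymal cells among the classes drawn below. Of 11 listed, 5 were measured in stellate cells, and 2 of these were at least 1.5-fold higher there and none lower, beside 6.27% and 11.7% of all genes measured, with a median log2 ratio of 0.50. Gdf2 encodes BMP9 and had 1474 CPM (1434 to 1516) and 1588 CPM (1551 to 1626) in stellate cells, for a log2 ratio of 0.11. Bmp10 had 548 and 914 CPM, which gives a log2 ratio of 0.74 (0.66 to 0.82), and Bmp5 1003 and 1598 CPM, at a log2 ratio of 0.67 (0.61 to 0.73). Gdf10 had 182 and 257 CPM and Gdf6 had 55.1 and 40.5 CPM. Contractile mesenchymal cells had 635 and 309 CPM of Bmp10, for a log2 ratio of -1.04, and 1197 and 925 CPM of Gdf2, so Bmp10 was lower in that class and higher in stellate cells. In endothelial cells Gdf2 had 10.1 and 3.61 CPM and was the only one of the 11 measured. Its log2 ratio was -1.48, so it was lower, beside 14.5% of all genes. The 10 stellate markers summed to 332 and 138 CPM in endothelial cells, and the part of stellate RNA in the Gdf2 value was not tested. In Kupffer cells 3 of the 11 ligands were measured and all 3 were higher, beside 4.9% of all genes, at a median of 1.72. These cells had 16.7 and 42.9 CPM of Gdf2 and 12.8 and 42.4 CPM of Bmp5, where the 10 stellate markers summed to 474 and 995 CPM, and the part of stellate RNA in these values was not tested.

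**Figure D4:**
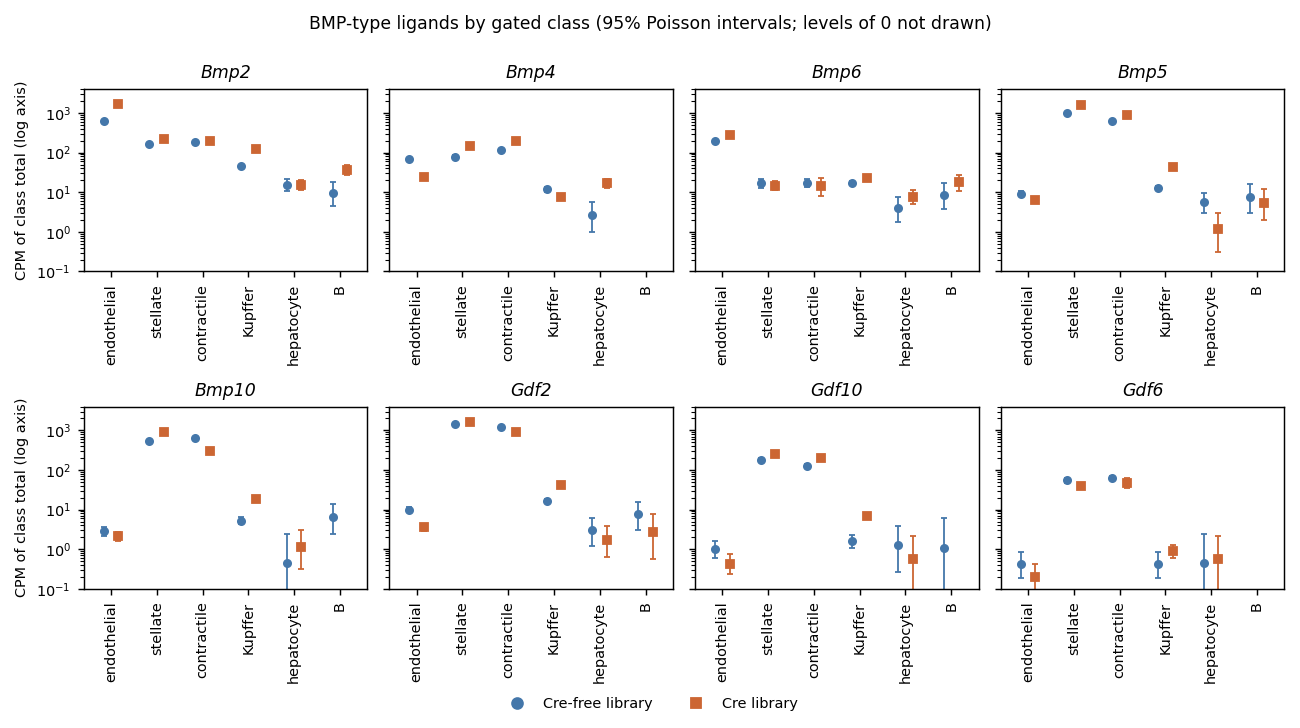
Level of 8 BMP-type ligand genes (CPM of the class total, log axis, zeros not drawn) in 6 gated classes; circles are the Cre-free library, squares the Cre library, bars 95% Poisson intervals. Bmp2 and Bmp6 are highest in endothelial cells, and Bmp5, Bmp10, Gdf2, Gdf10 and Gdf6 in stellate or contractile mesenchymal cells.

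Of 10 other receptors and co-receptors 4 were measured in endothelial cells and none differed by 1.5-fold, where 6.04% of all genes were higher and 14.5% lower. The median of the 4 receptor genes was 0.23 on the log2 scale. Eng, which encodes endoglin, had 1167 and 1412 CPM, and Acvr1 had 95.4 and 104 CPM. In stellate cells 6 were measured and 1 was higher, Acvr2a, an activin and BMP type II receptor, at 249 and 409 CPM, which gives a log2 ratio of 0.72, beside 6.27% of all genes. Contractile mesenchymal cells had 1 of 7 higher and 1 lower, beside 12.1% and 16.4% of all genes. Kupffer cells had 1 of 5 higher, beside 4.9% of all genes. Of 6 SMAD transducers and turnover genes, all 6 were measured in endothelial and in stellate cells and none differed by 1.5-fold. Of all genes, 6.04% and 6.27% were higher and 14.5% and 11.7% lower in these 2 classes. Smad1 had 140 and 172 CPM and Smurf2, a ubiquitin ligase recruited by inhibitory SMADs, 186 and 170 CPM in endothelial cells.

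The extracellular antagonists that differed in stellate and endothelial cells were lower. Of 19 listed, 8 were measured in stellate cells, and 3 were lower, beside 11.7% of all genes: Chrdl1, a chordin-like BMP antagonist, at 70.7 and 3.01 CPM, at a log2 ratio of -4.55, Fstl1 at 857 and 438 CPM, for a log2 ratio of -0.97, and Fstl3 at 17.4 and 4.86 CPM. Endothelial cells had 4 measured and 2 lower, beside 14.5% of all genes, Fstl1 at 56.7 and 12.4 CPM and the pseudoreceptor Bambi at 29.8 and 13.2 CPM, with log2 ratios of -2.19 and -1.17. Fstl1 in endothelial cells stands beside the lower stellate-marker sum given above.

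Among 11 further target genes 4 were measured in endothelial cells, with 1 higher and 1 lower, beside 6.04% and 14.5% of all genes. Id4 was higher, at 68.9 and 156 CPM, which gives a log2 ratio of 1.18, and the 1 lower was Hamp at 14.1 and 3.04 CPM, a hepatocyte transcript that stands beside hepatocyte markers summing to 445 and 135 CPM in endothelial cells. Id2 had 370 and 290 CPM and Id3 418 and 525 CPM, so the 4 Id genes did not share 1 direction in endothelial cells. In stellate cells 5 targets were measured and 3 were lower, beside 11.7% of all genes. These were Id2 at 216 and 138 CPM, Atoh8 at 28.3 and 11.8 CPM, and Hamp at 17.1 and 3.24 CPM. Hepatocyte markers summed to 539 and 194 CPM in stellate cells, and their part in the Hamp value was not tested. Tmem100, a target of BMP9 and BMP10 signalling, had 37.9 and 151 CPM in contractile mesenchymal cells and 115 and 123 CPM in stellate cells.

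Hepatocyte-gated cells, 243 and 81, are remnants of a depletion, where 10.2% of 8170 measured genes were higher by that size and 53.5% lower. Hamp had 2302 and 955 CPM in them, at a log2 ratio of -1.27, which was -0.63 after scaling by the trimmed mean of M-values. Tfr2 and Tmprss6, an activator and a repressor of hepcidin expression, had 85.7 and 242 CPM and 36.5 and 120 CPM. Hjv, the BMP co-receptor haemojuvelin, had 51.8 and 35.0 CPM, and Id1 29.0 and 5.84 CPM.

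Genes of most similar pattern were sought over 22 sums of a class in a library, each of at least 50 cells, among 8458 genes, by Pearson's r of log2(CPM + 1). The sums share libraries and free RNA, so r is a description. Bmp2 was nearest to Cntfr (0.98), Clec14a (0.97) and Tspan7 (0.95), and Bmp6 to Limch1 (0.94) and Aqp1 (0.92). Bmp4 was nearest to Cd151 (0.94), Fzd8 (0.93) and Fkbp9 (0.93). Bmper was nearest to Denn2b (0.94), Pcolce (0.94) and Vstm4 (0.93). Bmpr2 was nearest to Lrrc58 (0.94), Stard8 (0.94) and Arhgap23 (0.93), and Acvrl1 to Slc31a2 (0.91), Zfp516 (0.88) and Skap2 (0.88). Smad6 was nearest to Eng (0.95), Il6st (0.95) and Amotl1 (0.94), Smad7 to 4930503L19Rik (0.89), Nipsnap2 (0.88) and Epb41l2 (0.87), and Id1 to Pnp (0.94), Lamtor1 (0.89) and Cxcl16 (0.87). Smad9, with few counts, reached 0.84 with Hsd17b4. Among the genes themselves, Bmpr2 and Smad6 had an r of 0.93 and Bmp2 and Smad6 0.89.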

How the data were processed

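About 10000 viable cells from each of the 2 livers went into BD Rhapsody whole transcriptome libraries read on a DNBSEQ machine, per the labels' protocols. Counts were deposited as whole numbers for each gene and barcode, without normalization by the authors. Per the submitters' processing notes, GRCm39 was the genome build. Which aligner and counter were used, and whether identifiers were collapsed or strand used, is not given in the sources used here. Intervals cover counting error alone and take counts as independent molecules, which makes them a lower limit of the error.

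The genes and all lists were chosen with earlier results of these data known, and gate thresholds were set after values had been seen. A barcode was kept with 300 genes or more, 500 counts or more and no more than 25% of counts mitochondrial, which left 7917 and 8799 of 10000. Scrublet in Scanpy 1.11.5 marked 0.0126% and 0.0114% of them by its automatic threshold, which had not worked, and the top 5% of scores were removed instead, 361 and 437 cells. A marker was on in a cell at 10% or more of its 99.9th percentile of counts per 10000. A cell took the class with the highest fraction of markers on, with at least 3 on and no class of another lineage above 50% of that fraction. Mesenchymal cells with 3 or more contractile markers on were called contractile, the others stellate. Endothelial states needed at least 2 state markers at 25% or more of the 99.5th percentile. Clusters were drawn by Leiden at resolution 1.0 on 30 components of 2000 genes, without the BMP genes, the pathway lists and Ccn2.

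Summed counts of a class in a library were scaled to CPM. Levels carry exact Poisson, ratios exact conditional and shares exact Clopper-Pearson intervals (SciPy 1.17.1), all at 95%. No test was made, since each group has 1 library. Higher and lower mean a fold of 1.5 or more, with no test behind it. The 10 genes are named in every class and state of use, and from each pathway list up to 4 genes of at least 1.5-fold in endothelial cells or in the class where the gene is highest, otherwise the 2 of highest CPM, with some of those not printed. Values of Gdf2, Id2, Id3, Tmem100, Atoh8, Fstl3, Tfr2, Tmprss6 and Hjv outside that rule were picked after they were seen. One gene of similar pattern is not reported here. Scaling factors came from edgeR 4.0.16. The code was tested on simulated counts with known folds. Alternatives were other cell filters, doublets kept, a stricter gate, clusters in place of the gate, thinned cells, means of per-cell CPM, other scalings, sinusoidal cells alone and other minimums and folds. The weighting by state mix with and without large-vessel cells, the split by Rspo3 and the values within clusters were added after the data had been seen.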

Additional observations from a re-analysis of the deposited data

Results flagged for a closer look

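Bmp4 had opposite directions in different cells. Its log2 ratio in endothelial cells was 2.46 below that in stellate cells (a difference of -2.46) and stood -2.31 from that in contractile mesenchymal cells. Stellate minus Kupffer cells gave 1.60, and contractile mesenchymal minus Kupffer cells 1.45, although the lower Kupffer value was not seen within either Kupffer cluster with enough cells. Smad7 differed by 2.28 between endothelial and stellate cells, being higher in the former and lower in the latter in the Cre library. Its stellate ratio ran from -1.10 to -0.48 over the alternatives, the latter under the 1.5-fold size. None of these differences was tested, since each label has 1 library. Without large-vessel cells the endothelial log2 ratio of Bmp4 was -1.65. Within the endothelial class Bmp4 was higher in the Cre library in large-vessel cells (1.37, from 95 and 18 cells) and in cluster 1 (0.44, from 302 and 199 cells).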

How the results depend on the processing

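With 1 library per label, agreement between settings is no replicate check. No paired analysis was possible because each group has 1 library and no result comes from a test. No log2 ratio past 1.5-fold changed sign under any alternative. The ratios of single genes stayed inside their counting interval in 658 cases and left it in 178. Of the counts by size, 84 stayed within 1.5 times and 28 did not. Endothelial BMP genes counted as higher went from 3 to 5 with both other scalings. Those counted as lower went from 2 to 1 with both scalings, clusters in place of the gate, thinned cells, sinusoidal cells alone and a fold of 2. All endothelial genes higher went from 560 to 985 and 988 with the scalings, 320 at a minimum of 50 CPM, 2061 with no minimum and 190 at a fold of 2. Those lower went from 1342 to 437, 6320 and 777 under the last 3. In stellate cells higher went from 1 to 0 at a fold of 2. In contractile cells higher went from 3 to 1 at a fold of 2, and lower from 0 to 1 with the stricter cell filter and with thinned cells. In Kupffer cells higher went from 1 to 3 with clusters and to 2 with thinned cells or no minimum, and lower from 1 to 0 with clusters, thinned cells, 50 CPM or a fold of 2 and to 2 with no minimum. Where the setting itself changes the threshold or the cells used, that is how it was built; otherwise the cause was not tested. Clusters gave no value for endothelial states or contractile cells, and means of per-cell CPM none for counts. Low counts limit Smad9, Bmper, Acvrl1 in mesenchyme and states under 50 cells. The state-mix weighting, chosen after seeing the data, took Bmp4 in endothelial cells from -1.50 to -0.09 or -0.80, and without the large-vessel state to -1.97 or -1.27; the -0.09 rests on 18 cells. Within cluster 13, also looked at afterwards, Smad7 of contractile cells went from -0.12 to -0.79. Bmp4 of endothelial cells stood at 0.44 within cluster 1, against -1.50 in the class.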
